A study of Mus musculus with 4 samples.

Results

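Annexin and S100 genes were compared between Klf13 knockout (KO) and wild-type mice, in naive CD8 T cells sorted from the spleen. The set comprised 6 annexin genes (Anxa1, Anxa2, Anxa4, Anxa5, Anxa6 and Anxa11) and 4 S100 genes (S100a4, S100a6, S100a10 and S100a11); several of them are memory T cell markers, and all 10 were among the 19938 genes tested. Each gene was read from the probe set that the array annotation pairs with its symbol alone, taking the brightest where there were several. The data were 4 Affymetrix arrays, 1 per sample, with 2 arrays of cells labelled KLF13 KO and 2 of cells labelled wild type. All mice were BALB/c, the cells were isolated by fluorescence-activated sorting, and no treatment is named. The animals' age, whether samples came from separate animals, the part of Klf13 that was removed and whether its loss was limited to T cells are not stated in the labels. A p-value here therefore reflects only how far these samples spread, which may be technical variation.

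Annexins are proteins that attach to acidic phospholipids of membranes when calcium rises, and they take part in membrane repair, vesicle traffic and the ordering of the cell cortex. S100 proteins are small calcium sensors with EF-hand loops that act mostly as dimers, and several of them bind an annexin: S100A10 holds the N-terminus of annexin A2 and S100A11 that of annexin A1. In CD8 T cells, transcripts of Anxa1, Anxa2, S100a4, S100a6, S100a10 and S100a11 are known to be higher in effector and memory cells than in naive cells. Klf13 encodes a zinc-finger transcription factor that binds GC-rich and CACCC elements.

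Values are log2 probe-set values. Klf13 was at 5.46 and 5.43 on the KO arrays and at 7.01 and 7.15 on the wild-type arrays, so both KO arrays were lower; whether this probe set lies in the removed part is not known here. Cd8a was at 11.11 and 11.14 in the KO and 11.25 and 11.12 in the wild type, and Cd4 at 4.07 and 3.47 against 3.79 and 3.88. Over all genes, limma called 1.19% higher and 1.05% lower in the KO (Benjamini-Hochberg adjusted p under 0.05). The total of 448 calls, of which 53.1% were higher, became 264 without KO replicate 1, 1536 without KO replicate 2 and 277 without wild-type replicate 1, and 21.8% of calls were higher after each array was centred on its median. The median difference over all genes was 0.02 on the log2 scale.

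Among the 10 genes, 2 rose in the KO, Anxa2 and Anxa1, and 0 fell, while 8 did not pass the limma test. At an unadjusted p under 0.05 the limma counts were 4 higher and 0 lower, where 7.85% of all genes were higher and 8.75% lower. Both KO arrays lay above both wild-type arrays for 7 of the 10 genes, as they did for 24.4% of all genes, and for the other 3 the groups overlapped. The median difference of the 10 was 0.18, and 0.09 after median centring, which put the median of all genes at -0.07. The mean log2 value of the 10 genes was 7.69 and 7.70 on the KO arrays and 7.46 and 7.43 on the wild-type arrays. The number called depended on the processing: without KO replicate 1, wild-type replicate 1 or wild-type replicate 2 it was 1, and with all probe sets of the table tested singly it was 0.

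**Figure D1:**
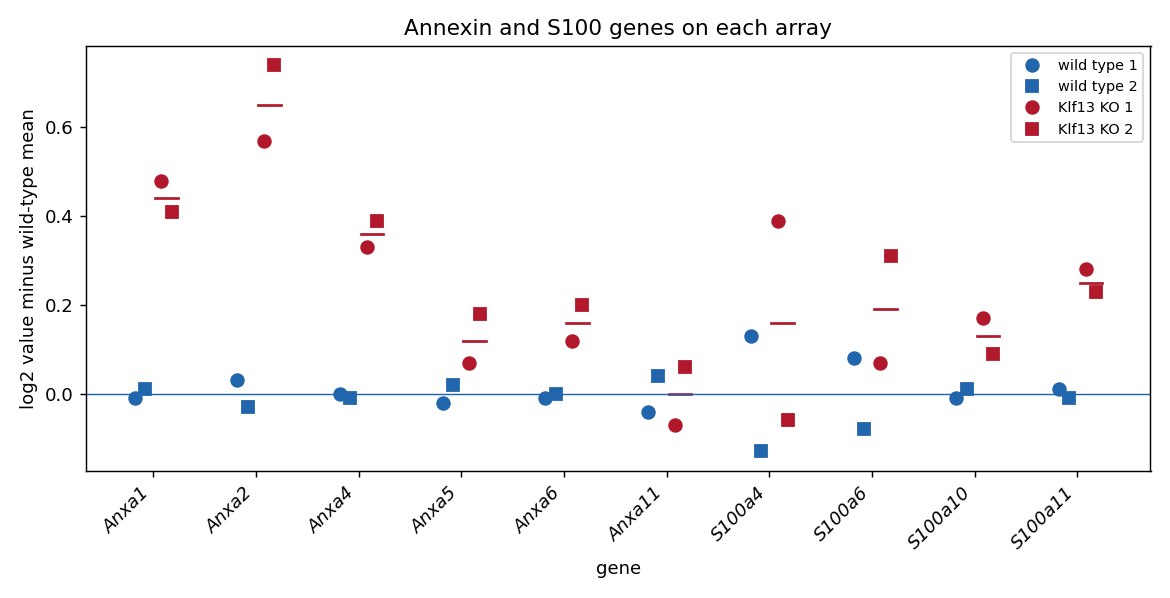
Log2 value of each annexin and S100 gene on each array (y axis), after subtraction of that gene's wild-type mean; genes are on the x axis, blue marks are the wild-type arrays, red marks the KO arrays, and each red line is the mean of 2 KO arrays. Anxa2, Anxa1 and Anxa4 have both KO arrays at least 0.33 above both wild-type arrays, whereas the marks of Anxa11, S100a4 and S100a6 intermingle.

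The members with the largest differences were Anxa2, Anxa1 and Anxa4. Anxa2, whose product bridges membranes and cortical actin and binds S100A10, was at 6.45 and 6.62 in the KO and 5.91 and 5.85 in the wild type. Both KO arrays were higher, and the lower of them lay 0.54 above the higher wild-type array. The means were 6.53 ± 0.11 and 5.88 ± 0.04 (SD, n = 2), a 1.57-fold rise (log2 difference 0.65, SE 0.10, limma adjusted p = 0.00795), and 0.492% of all genes rose at least as far in their difference of means. The call was lost with all probe sets tested singly (limma adjusted p = 0.127), and the difference lay between 0.57 and 0.74 under all 11 alternatives.

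Anxa1, which encodes a phospholipid-binding protein that also acts outside cells on formyl peptide receptors and restrains inflammation, was at 7.02 and 6.95 in the KO and 6.53 and 6.55 in the wild type. Again both KO arrays were higher and the groups lay 0.40 apart. The means of 6.98 ± 0.06 and 6.54 ± 0.01 (SD, n = 2) gave a 1.36-fold rise (log2 difference 0.44, SE 0.09, limma adjusted p = 0.0382). This call was close to the threshold: it was lost without KO replicate 1 (limma adjusted p = 0.0947), wild-type replicate 1 (0.283) or wild-type replicate 2 (0.190). It was also lost after a further quantile normalization (0.0543), after median centring (0.0532) and with all probe sets tested singly (0.182), while the difference itself ranged from 0.36 to 0.52.

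Anxa4, which encodes an annexin best known from epithelia, was at 5.15 and 5.21 in the KO and 4.82 and 4.81 in the wild type. The groups did not overlap, but the difference of 0.37 (SE 0.09, 95% interval 0.16 to 0.57) missed the threshold (limma adjusted p = 0.0773). It passed when only the brighter genes were tested (limma adjusted p = 0.0387).

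For the other 3 annexins the differences were smaller than for Anxa4. Anxa6, which encodes the annexin with a doubled core and organises cholesterol-rich membrane, was at 10.56 and 10.64 in the KO and 10.43 and 10.44 in the wild type, a difference of 0.17 (95% interval -0.04 to 0.37, limma adjusted p = 0.414). Its dimmer probe set gave -0.07 with overlapping groups, so the probe sets of Anxa6 disagreed in sign. Anxa5, whose product binds exposed phosphatidylserine and is used as a reagent for dying cells, was at 8.19 and 8.30 against 8.10 and 8.14 (difference 0.12, 95% interval -0.09 to 0.33, limma adjusted p = 0.567).

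Anxa11, which encodes an annexin with a long N-terminal region that tethers RNA granules to lysosomes, was at 7.15 and 7.28 in the KO and 7.18 and 7.26 in the wild type. The arrays of the genotypes intermingled. The difference was 0.00 (95% interval -0.21 to 0.21), and its sign turned with the scaling, to -0.09 after median centring.

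The sequences before the start sites of Anxa2 and Anxa1, the members that rose, are shown with that of Anxa11, the member with the smallest difference. Each is the RefSeq sequence (GRCm38.p6) of the 250 bases upstream, 5′ to 3′ on the gene's strand, and capitals mark 3 motifs, each searched on both strands. They are the CACCC box, the GC box of Sp1 and KLF factors with the letters GGGCGG, and the AP-1 site with the letters TGANTCA. The windows are chr9:69453433-69453682 on the plus strand, chr19:20390672-20390921 on the minus strand and chr14:25841905-25842154 on the plus strand.
Anxa2: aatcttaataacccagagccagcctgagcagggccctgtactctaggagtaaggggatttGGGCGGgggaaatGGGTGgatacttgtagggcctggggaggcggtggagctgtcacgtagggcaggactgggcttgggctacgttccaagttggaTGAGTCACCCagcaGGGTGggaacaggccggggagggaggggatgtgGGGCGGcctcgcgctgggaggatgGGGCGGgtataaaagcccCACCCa
Anxa1: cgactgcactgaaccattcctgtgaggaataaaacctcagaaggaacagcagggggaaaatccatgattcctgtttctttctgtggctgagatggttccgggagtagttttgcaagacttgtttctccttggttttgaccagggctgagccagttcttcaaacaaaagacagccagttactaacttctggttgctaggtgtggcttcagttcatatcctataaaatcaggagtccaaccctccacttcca
Anxa11: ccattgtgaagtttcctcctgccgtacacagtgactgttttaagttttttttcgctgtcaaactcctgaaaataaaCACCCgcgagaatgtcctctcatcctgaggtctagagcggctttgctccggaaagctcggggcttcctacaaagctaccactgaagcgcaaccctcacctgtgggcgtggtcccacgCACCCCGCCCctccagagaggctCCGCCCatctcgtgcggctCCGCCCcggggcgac
The window of Anxa2 held 4 matches to the CACCC box, 3 to the GC box and 1 to the AP-1 site, which overlaps a CACCC box. The window of Anxa1 held 0 of each. That of Anxa11 held 2 CACCC boxes and 3 GC boxes, with 1 pair sharing bases. Over the 8 members with a window, 5 held a CACCC box, 3 a GC box and 2 an AP-1 site (Anxa2 and S100a11). Of all 32851 windows of the same length, 52%, 32.7% and 6.75% held them. The member counts are per gene over 9 windows, as Anxa4 has an additional one, whereas these percentages are per window. Anxa6 and S100a10 were not among the windows used here. These are letter matches and not binding sites.

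None of the 4 S100 genes passed the test, and at an unadjusted p under 0.05 limma gave 1 higher and 0 lower (7.85% and 8.75% of all genes). S100a11, which encodes the partner of annexin A1, was at 9.37 and 9.32 in the KO and 9.10 and 9.08 in the wild type. The groups did not overlap, and the difference was 0.25 (SE 0.09, 95% interval 0.05 to 0.45, limma adjusted p = 0.209). A dimmer probe set, which lists the same S100a11 transcript records, was at 9.16 and 9.13 against 8.84 and 8.89, a difference of 0.28 in the same direction. Only the fit with a variance trend and robust moderation called S100a11 (limma adjusted p = 0.0296).

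S100a10, the partner of annexin A2, lacks calcium binding in its loops and stays in its active form; it was at 11.01 and 10.93 in the KO and 10.83 and 10.85 in the wild type. Both KO arrays were higher, by at least 0.07, and the difference was 0.13 (95% interval -0.08 to 0.33, limma adjusted p = 0.545). The corresponding interval of Anxa2 was 0.44 to 0.87; whether the differences of these partner genes are unequal was not tested.

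S100a4 and S100a6 were the members with the widest spread within a genotype. S100a4, whose product binds non-muscle myosin and is linked to cell motility, was at 5.40 and 4.95 in the KO and 5.14 and 4.88 in the wild type. The KO arrays lay 0.44 apart, more than the difference of 0.16 between genotypes (SE 0.15, 95% interval -0.16 to 0.48, limma adjusted p = 0.637), and without KO replicate 1 the difference was -0.06. S100a6, which encodes calcyclin, was at 6.56 and 6.80 in the KO and 6.57 and 6.41 in the wild type. The lower KO array lay level with the higher wild-type array, and the difference was 0.19 (95% interval -0.05 to 0.44, limma adjusted p = 0.432). It was 0.31 without KO replicate 1, 0.07 without KO replicate 2 and 0.11 without wild-type replicate 2.

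**Figure D2:**
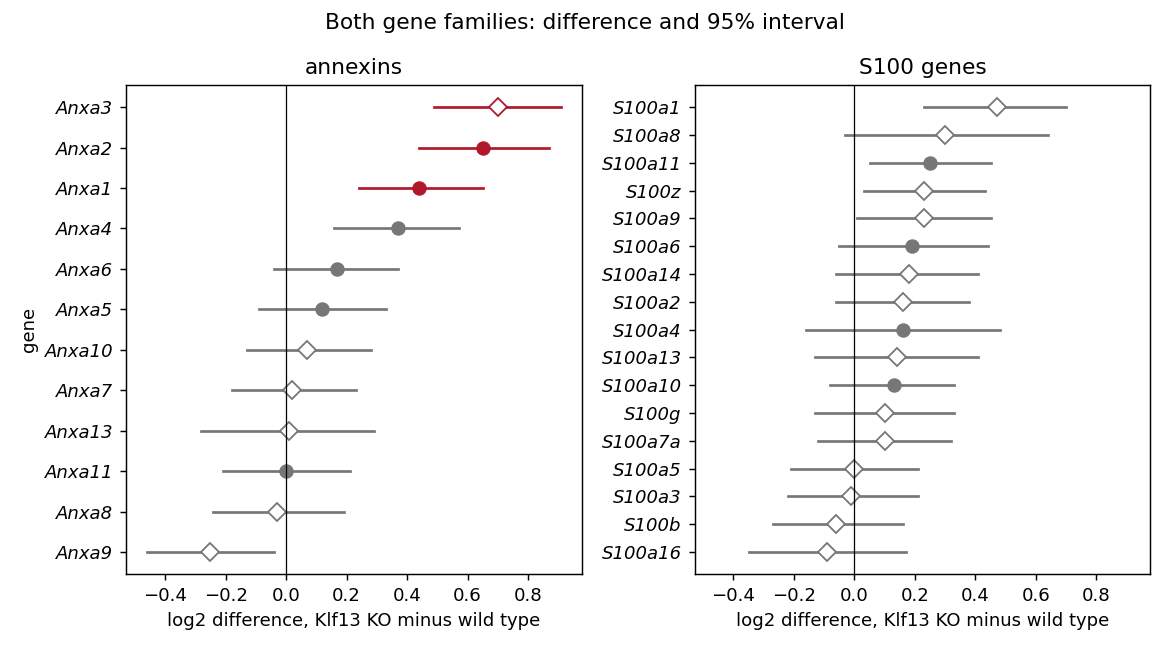
Log2 difference, KO minus wild type (x axis), with its 95% interval for each of 12 annexin genes (left) and 17 S100 genes (right), ordered by size; filled circles are the 10 listed genes, open diamonds the other family members, and red marks an adjusted p under 0.05. Anxa3, Anxa2 and Anxa1 are the red points, and all S100 intervals are grey.

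The other members of both families were measured for comparison. Of the 6 other annexins, 1 rose, 0 fell and 5 did not pass (all genes: 1.19% higher, 1.05% lower). Anxa3, which encodes an annexin abundant in neutrophil granules, was at 4.66 and 4.80 in the KO and 4.03 and 4.03 in the wild type, a 1.63-fold rise (log2 difference 0.70, SE 0.10, limma adjusted p = 0.00478). That difference was the highest of the 12 annexins measured, and its call was lost with all probe sets tested singly (limma adjusted p = 0.107). Anxa9, in contrast, was at 4.64 and 4.75 against 4.97 and 4.93; both KO arrays were lower, and the difference was -0.25 (limma adjusted p = 0.218). Anxa7, which encodes synexin, differed by 0.02 (95% interval -0.18 to 0.23), and Anxa8, Anxa10 and Anxa13 by -0.03, 0.07 and 0.01.

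Of the 13 other S100 genes, 0 passed in either direction, with 3 higher and 0 lower at an unadjusted p under 0.05 in limma (7.85% and 8.75% of all genes). S100a1, best known as a calcium sensor of muscle, was nearest: it was at 5.21 and 5.40 in the KO and 4.78 and 4.91 in the wild type, a difference of 0.47 (SE 0.10, limma adjusted p = 0.0520), and it passed under 4 of 11 alternatives. S100a8 and S100a9, which encode the subunits of neutrophil calprotectin, differed by 0.30 and 0.23 (limma adjusted p = 0.348 and 0.281). S100a8 was at 3.65 and 3.12 in the KO and 3.10 and 3.06 in the wild type, so KO replicate 1 carried its difference. Without KO replicate 1 that difference was 0.04, and without KO replicate 2 it was 0.57 and passed (limma adjusted p = 0.0317). The remaining S100 genes lay between -0.09 (S100a16) and 0.23 (S100z), and S100a7l2 was not read from a single-gene probe set.

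Mouse S100 genes lie mostly in one cluster on chromosome 3, and 14 of the 17 measured are there. Along the chromosome the listed S100a4 and S100a6 flank S100a5, whose groups overlapped, and S100a11 and S100a10 stand next to each other beyond S100a9. Over the 14 genes 11 differences were positive and 3 negative, with a median of 0.16 and a range of -0.09 to 0.47. Of all genes 10781 were positive and 9157 negative. None of the 10 listed genes lies on chromosome 7, the chromosome of Klf13.

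Genes whose products work with annexins or S100 proteins showed little shift, with a median difference of 0.01 over the 23 measured. In limma 1 of them rose and 0 fell (4 and 0 at an unadjusted p under 0.05, beside 7.85% and 8.75% of all genes), which leaves 22 that did not pass. The one that rose was Plaur, the urokinase receptor of the plasminogen system, in which annexin A2 and S100A10 also take part on the cell surface. It was at 5.57 and 5.84 in the KO and 4.70 and 4.61 in the wild type, 2.07-fold higher (log2 difference 1.05, SE 0.11, limma adjusted p = 9.67e-04), and like Klf13 it lies on chromosome 7. The call was lost with all probe sets tested singly (limma adjusted p = 0.0958).

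Other genes of that system did not pass: Plau, the urokinase gene, Plat, Plg and Plgrkt, a plasminogen receptor, differed by 0.11, -0.06, 0.13 and -0.13. Ahnak, a giant scaffold that binds the annexin A2 and S100A10 complex, was at 7.27 and 7.30 in the KO and 7.54 and 7.44 in the wild type, lower on both arrays, with a difference of -0.20 that did not pass (limma adjusted p = 0.319). Myh9, the myosin partner of S100A4, differed by -0.08 and Cacybp, the calcyclin-binding protein, by 0.01. Pdcd6 and Sri, calcium sensors that bind annexins, differed by -0.11 and -0.13. Ahnak2 (0.32), Chmp4b (0.25) and Dlc1 (0.27) had the smallest p after Plaur. The formyl peptide receptor genes Fpr1, Fpr2 and Fpr3 were not read from single-gene probe sets.

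Since several of the listed genes mark memory T cells, other surface and cytoskeletal genes of memory cells were set beside them. This list of 29 measured genes had 3 that rose, 2 that fell and 24 that did not pass (all genes: 1.19% higher, 1.05% lower). Its median was 0.14, but 0.05 after median centring, 0.01 without KO replicate 2 and 0.07 without wild-type replicate 2. Itga4, an integrin chain of homing to inflamed tissue, rose by 0.52 (SE 0.09, limma adjusted p = 0.0194), Plac8 by 0.57 and Id2, a regulator of effector differentiation, by 0.44. The chemokine receptor gene Cxcr3 fell by 0.97 and the cytokine receptor chain gene Il18rap by 0.42. With all probe sets tested singly, no gene of this list passed. Without wild-type replicate 1 or 2, 1 rose and 1 fell; Itga4 then did not pass (limma adjusted p = 0.148 and 0.0554), nor did Il18rap (0.282 and 0.326) or Id2 (0.102 and 0.441). Without KO replicate 1, 3 rose and 1 fell, Il18rap (0.0992) and Id2 (0.125) then failing, and without KO replicate 2, 2 rose and 5 fell, with Id2 at 0.0509.

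Further genes of this list were named after their values were seen, and none of them passed. Lgals1, the gene of galectin 1, was at 9.69 and 9.76 in the KO and 9.28 and 9.36 in the wild type (0.41, limma adjusted p = 0.0567). Emp3, a membrane protein gene on chromosome 7, differed by 0.39 (0.0689), Vim, the vimentin gene, by 0.33 (0.114), and Crip1, which encodes a LIM-domain protein, by 0.28 (0.164). Both KO arrays were higher in each of these 4 genes. Crip2 went the other way, at -0.45 (limma adjusted p = 0.0588). Over the 29 measured genes of the list, both KO arrays were higher for 12 and lower for 8, beside 24.4% and 23.2% of all genes. Lgals3, Capg, Itgb1, Tagln2 and Lmna differed by 0.26, 0.19, 0.11, -0.04 and -0.13. Cd44 and Il2rb, surface markers of memory-like cells, differed by -0.08 and -0.01, with overlapping groups for each.

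Among 27 other calcium-handling genes 1 rose, 1 fell and 25 did not pass (all genes: 1.19% higher, 1.05% lower), with a median of -0.01. Hpcal1, a neuronal-type calcium sensor gene, rose by 0.43 (SE 0.09, limma adjusted p = 0.0448), and Syt11, a synaptotagmin gene, fell by 0.77 (SE 0.11, limma adjusted p = 0.00508). The Hpcal1 call was lost without KO replicate 1, wild-type replicate 1 or wild-type replicate 2. It was also lost after median centring (limma adjusted p = 0.0683) and with all probe sets tested singly (0.189). The Syt11 call was lost with all probe sets tested singly (limma adjusted p = 0.124). Mctp2 (-0.38) and Cpne2 (0.27) had the next smallest p.

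Annexins and S100 proteins are also abundant in myeloid cells and other leukocytes, so markers of other cell types are given beside them. The share of all genes called, for comparison with each list, was 1.19% higher and 1.05% lower. Of 17 neutrophil markers 4 rose and 0 fell, the granule genes Mpo (1.97), Prtn3 (1.71), Ctsg (1.70) and Elane (1.60). The median over the list was 0.22, with 15 differences positive and 2 negative, Ly6g (-0.12) and Mmp8 (-0.03). Camp and Retnlg differed by 0.06 and 0.08, with overlapping groups. The mean log2 value of that list was 4.35 and 4.32 on the KO arrays and 3.76 and 3.84 on the wild-type arrays. Of 21 myeloid and dendritic markers 4 rose and 0 fell (Lyz2 1.15, Mpeg1 0.84, Tyrobp 0.62 and Csf1r 0.58), and fewer rose without KO replicate 2. The median was 0.33, with list means of 4.97 and 5.10 against 4.74 and 4.69. In this list 18 differences were positive and 3 negative (Cd68 -0.34, Ctss -0.18 and Cd300a -0.02). Both KO arrays were lower for Cd68 and Ctss. Of 19 B cell markers 4 rose and 0 fell (Ighm 0.80, Ly6d 0.64, Mzb1 0.64 and Cd74 0.53). Fewer of them rose without KO replicate 1 or wild-type replicate 1. The median was 0.26, with list means of 5.44 and 5.47 against 5.16 and 5.20. In this list 16 differences were positive and 3 negative (Fcer2a -0.09, Cr2 -0.06 and Cd22 -0.05), and Ms4a1 differed by 0.01. For each of these 3 lists both KO means were above both wild-type means. The same held for the listed annexin and S100 genes, the other members of both families and the CD4, NKT and erythroid lists below. It held too for the partner genes (6.43 and 6.48 against 6.39 and 6.36), whose median difference was 0.01. The memory, calcium-handling, NK cell and CD8 lists did not show it. Over all genes the mean was 5.13 and 5.15 on the KO arrays and 5.13 and 5.13 on the wild-type arrays. The median over all genes was 4.71 and 4.66 on the KO arrays, above 4.59 and 4.61 on the wild-type arrays. After median centring the median differences were 0.13 for neutrophil, 0.24 for myeloid and 0.18 for B cell markers.

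Of 13 markers of CD4 and regulatory T cells 4 rose (Itgae 1.01, Gpr83 0.92, Ikzf2 0.59 and St8sia6 0.55) and 2 fell (Cxcr5 -1.13 and Tnfsf8 -0.55). Fewer fell without KO replicate 1 or wild-type replicate 1. Foxp3 (0.18), Cd40lg (0.17), Cd4 (-0.07) and Ctla4 (-0.33) did not pass, and the groups overlapped for Foxp3, Cd40lg and Cd4. The median was 0.38, with list means of 5.11 and 5.22 against 5.02 and 4.92. Of 12 NKT and gamma-delta T markers 2 rose (Il17rb 0.54 and Il23r 0.47) and 0 fell, with a median of 0.27 and list means of 6.20 and 6.31 against at most 6.02 on the wild-type arrays; without wild-type replicate 1 or 2 neither passed. Of 7 erythroid and platelet markers 2 rose (Itga2b 0.51 and Pf4 0.51) and 0 fell, with a median of 0.18 and means of 5.65 and 5.73 against 5.49 and 5.46, and 1 rose whichever array was left out. Of 13 genes listed as NK cell markers 2 rose (Tyrobp 0.62 and Cd244a 0.55) and 3 fell (Eomes -1.45, Gzmb -0.96 and Prf1 -0.89). The median was -0.01, with means of 4.65 and 4.77 against 4.89 and 4.82. Its differences were 6 positive and 7 negative. Ncr1 (0.41) and Klrb1c (0.22) were higher on both KO arrays and Klrk1 (-0.26) was lower, and none of these passed. Fewer rose without KO replicate 1, KO replicate 2 or wild-type replicate 1. Of 12 T cell receptor and CD8 genes 0 rose and 0 fell in limma, with 0 higher and 2 lower at an unadjusted p under 0.05 (7.85% and 8.75% of all genes), a median of -0.10 and means of 9.38 and 9.44 against 9.51 and 9.52.

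With all probe sets of the table tested singly, 2 neutrophil markers rose and 1 NK cell marker fell, and no other marker of these lists passed. These values carry no detection calls and a log2 value has no zero, so no marker was called absent. In bulk samples fewer cells of a type and less RNA per cell cannot be told apart. The part of these other cell types in the rises of Anxa1, Anxa2 and Anxa3 was not tested.

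**Figure D3:**
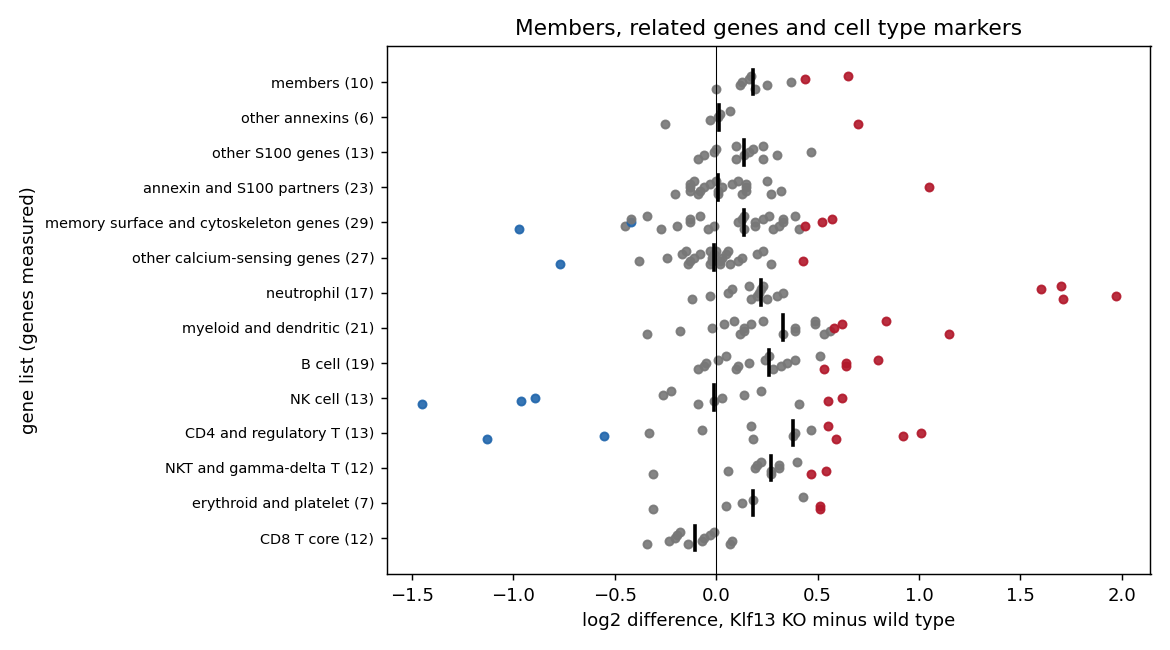
Log2 difference, KO minus wild type (x axis), of every measured gene in each list (y axis, with the number of genes), where a point is a gene, red and blue are genes called higher and lower, grey did not pass, and black bars are list medians. The listed annexin and S100 genes have a median of 0.18, beside 0.22 for neutrophil, 0.33 for myeloid and 0.26 for B cell markers and -0.10 for T cell receptor and CD8 genes.

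**Figure D4:**
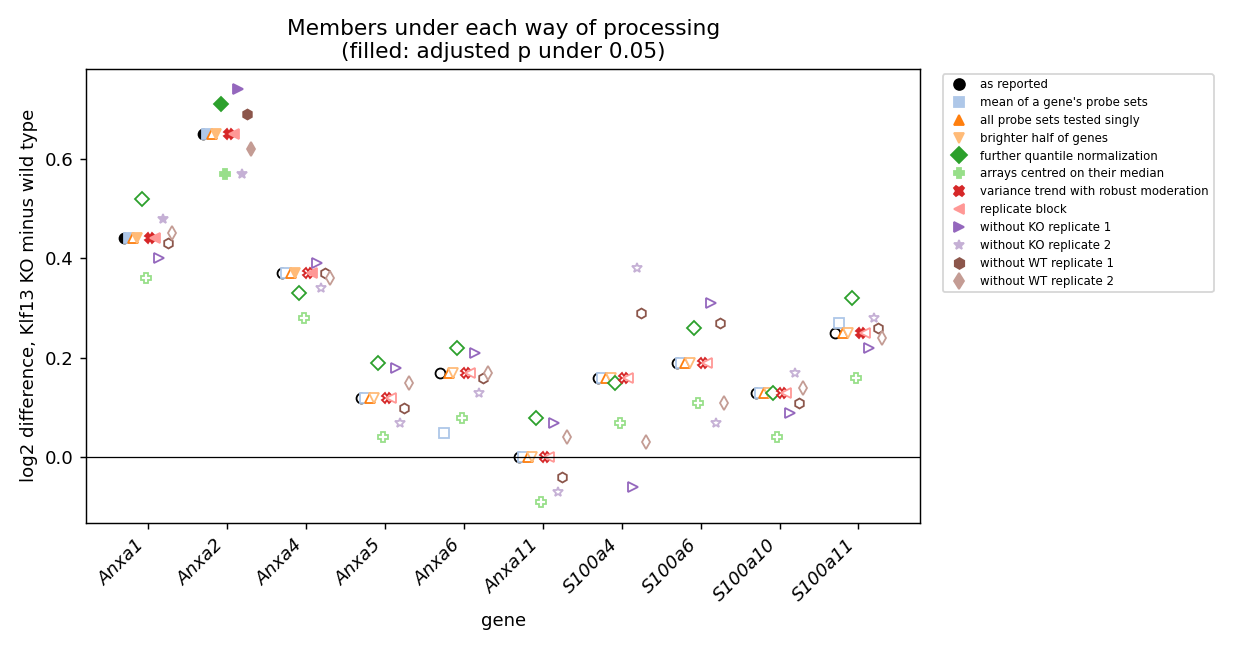
Log2 difference, KO minus wild type (y axis), of the 10 listed genes (x axis) as reported and under 11 alternative ways of processing, where a filled mark has an adjusted p under 0.05. Anxa2 is filled in all but the test of all probe sets singly, Anxa1 in 5 of 11 alternatives, and marks of Anxa11 and S100a4 fall on both sides of 0.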

How the data were processed

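The authors deposited a table of log2 probe-set values for 35556 probe sets on 4 arrays (range 1.34 to 13.5); per the submitters' processing notes the tools were RMA and Partek, without versions. RMA subtracts background, quantile normalizes and summarises probes, so a shift of most genes would be removed and folds of dim genes are compressed. Levels of different probe sets were not compared. RNA of an integrity number above 9, 200 ng per sample, was amplified from random primers, per the labels' protocols. The genome build used for the array is not given in the sources used here.

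GEO's platform annotation paired 21789 probe sets with 1 gene symbol, 1621 with several and listed none for 12146; for 21698 the gene identifier gave the current RefSeq symbol (GRCm38.p6). Differences are KO minus wild type, from a linear model with genotype alone and moderated variances (limma 3.58.1, R 4.3.3, two-sided, Benjamini-Hochberg adjustment over 19938 genes, prior degrees of freedom 8.06), with no filter on level; the fit was tested on simulated data. Intervals are 95% intervals of the moderated fit. The number of arrays limits the precision.

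The members and lists were chosen with earlier results of these data known. Named were Klf13, the members, their families, called genes of each list and up to 4 per list with the smallest p; Fpr, Plau, Plat, Plg, Plgrkt, Myh9, Cacybp, Pdcd6, Sri, Ahnak, Crip1, Vim, Emp3, Lgals1, Lgals3, Capg, Itgb1, Tagln2, Lmna, Cd44 and Il2rb were added for their role after their values were seen. Alternatives were averaging the probe sets of each gene, all probe sets tested singly, the brighter genes, a further quantile normalization, median centring, a variance trend with robust moderation, a replicate block and each array left out in turn.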

Additional observations from a re-analysis of the deposited data

How the results depend on the processing

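Across the 11 alternatives Anxa2 passed in 10 and Anxa1 in 5, both always higher in the KO. Anxa4 passed in 2 (the brighter genes and the replicate block) and S100a11 in 1. The number of listed genes called higher, 2 as reported, was 0 with all probe sets tested singly, 1 after a further quantile normalization, 1 after median centring and 1 to 2 with an array left out; 0 were called lower in each. Anxa11 reversed to -0.09 after median centring and ranged from -0.07 to 0.07 with an array left out, and S100a4 ranged from -0.06 to 0.38. Calls over all genes, 448 as reported, were 39 with all probe sets tested singly, 1088 after median centring, 831 with a variance trend, 1187 with the replicate block and 264 to 1536 with an array left out. Other list members called, 9 as reported, were 0 with all probe sets, 14 with the trend, 15 with the block and 5 to 13 with an array left out. This count of other list members covers the other annexins, other S100 genes, partner genes, memory genes and calcium-handling genes. The cell-type marker lists are not part of it. Anxa3 lies outside the brighter genes and has no value there.

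The labels give both genotypes replicate numbers 1 and 2, but nothing says that a number marks a shared litter or day, and same-numbered samples deviated together with a correlation of 0.0074 over genes, so they were not taken as pairs. With the replicate block Anxa4 passed (adjusted p = 0.0306) and 3 listed genes were called higher.

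With 2 arrays per group precision was limited: the 95% interval of Anxa11, whose difference was 0.00, reached 0.21 in each direction.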
